A study of Mus musculus with 6 samples.

Results

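The genes described are the TAM receptors Mertk, Axl and Tyro3, their ligands Gas6 and Pros1, the bridging protein gene Mfge8, the phosphatidylserine receptor gene Timd4, and Elmo1 and Dock1, which act in engulfment. They were chosen by symbol, with earlier results of these data known, and all 9 were found among the 28822 gene rows of the count table. The table came from RNA sequencing of mouse cells in 2 groups. One group was treated with BW723C86, an agonist of the serotonin receptor 5-HT2B (3 libraries), and the other with the vehicle DMSO (3 libraries). In both groups the cells were grown on a porous Transwell insert that shares medium, but no contact, with the HT22 cells below it. HT22 is a hippocampal neuronal line of the mouse, and it had been deprived of oxygen and glucose for 2 h, a culture model of ischaemia. The series title names the sequenced cells as bone marrow-derived macrophages, the sample labels name BMDM together with HT22, and the design text allows BV2 microglia or BMDMs. Mouse strain, age, agonist dose, treatment time and how many cultures were made are not given in the sources used.

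Dying cells display phosphatidylserine on their surface, and macrophages take them up by efferocytosis. GAS6 and protein S (the product of Pros1) bind phosphatidylserine through vitamin K-dependent Gla domains and activate the TAM receptor tyrosine kinases. In biochemical studies GAS6 activated each TAM receptor, while protein S activated TYRO3 and MERTK. MFGE8 bridges phosphatidylserine to integrins that contain the alpha-v chain, TIMD4 binds phosphatidylserine directly, and the ELMO1-DOCK1 complex activates the GTPase Rac1 to drive engulfment.

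Of the 9 genes, 6 were higher with BW723C86, 2 did not pass the test and 1 was too low to test. Tyro3 and Mfge8 differed most, 6.31-fold and 4.82-fold higher, followed by Pros1 (2.31-fold), Gas6 (1.93-fold), Axl (1.75-fold) and Mertk (1.73-fold). Elmo1 and Dock1, the intracellular engulfment pair, had overlapping values in the 2 groups. Values are counts scaled to a common library total (CPM), and the test was edgeR's two-sided quasi-likelihood test with p-values adjusted over 15567 tested genes and a threshold of 0.05. Across all tested genes, 42.0% passed the test, 21.3% higher and 20.7% lower with BW723C86, so a passing gene was common in this comparison. The counts of higher and lower genes in the lists below are to be read beside these shares. The median log2 fold change (BW723C86 over DMSO) was 0.88 over the 8 members tested and 0.00 over all tested genes, where the median absolute value was 0.27. In bulk RNA, a different number of cells of a type and a different amount of RNA per cell cannot be told apart.

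The sequence before the transcription start is shown for the 3 TAM receptor genes and Mfge8, which are the receptors and the bridge with values described in most detail. The sequences are the 250 bases before the annotated RefSeq start on build GRCm38.p6, 5′ to 3′ on the gene's own strand, and capitals mark matches on either strand to the GC box letters GGGCGG or the PU.1 core letters GAGGAA. Mertk is at chr2:128698665-128698914 (plus strand), Axl at chr7:25788734-25788983 (minus strand), Tyro3 at chr2:119799264-119799513 (plus strand) and Mfge8 at chr7:79149061-79149310 (minus strand).
Mertk: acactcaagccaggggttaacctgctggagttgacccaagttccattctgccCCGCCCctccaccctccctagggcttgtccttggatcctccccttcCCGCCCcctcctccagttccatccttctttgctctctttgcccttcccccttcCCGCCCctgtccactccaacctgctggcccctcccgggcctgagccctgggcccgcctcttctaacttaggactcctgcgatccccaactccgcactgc
Axl: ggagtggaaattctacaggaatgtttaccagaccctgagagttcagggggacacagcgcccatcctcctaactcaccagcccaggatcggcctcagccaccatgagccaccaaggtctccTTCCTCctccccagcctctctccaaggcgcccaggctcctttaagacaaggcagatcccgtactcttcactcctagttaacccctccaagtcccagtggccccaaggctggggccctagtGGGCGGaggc
Tyro3: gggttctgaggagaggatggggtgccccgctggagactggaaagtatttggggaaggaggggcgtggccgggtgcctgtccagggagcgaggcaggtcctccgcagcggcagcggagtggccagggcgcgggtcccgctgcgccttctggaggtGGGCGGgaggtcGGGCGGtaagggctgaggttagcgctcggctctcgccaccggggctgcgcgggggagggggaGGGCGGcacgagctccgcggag
Mfge8: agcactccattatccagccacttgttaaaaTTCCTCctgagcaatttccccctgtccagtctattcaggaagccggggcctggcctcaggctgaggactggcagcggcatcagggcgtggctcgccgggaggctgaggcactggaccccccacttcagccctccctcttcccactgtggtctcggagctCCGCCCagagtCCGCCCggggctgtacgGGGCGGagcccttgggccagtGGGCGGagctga

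All 9 members matched a RefSeq promoter by symbol, with 10 windows since Elmo1 had 2. The GC box occurred at least once in 8 of the 9 genes: 5 times for Pros1, 4 for Gas6 and for Mfge8, 3 for Mertk, for Tyro3 and for Dock1, 3 in the Elmo1 window that lies farther upstream, and 1 for Axl. Timd4 and the other Elmo1 window had none. Both the genes that were higher with BW723C86 and the pair that did not pass the test thus held these letters, as did 32.7% of 32851 windows of the same length. The PU.1 core letters, named after a transcription factor of myeloid cells, occurred once each for Axl, Mfge8 and Dock1, against 23.3% of all windows. Among the other letters searched on both strands, AGGTCA (a nuclear receptor site, in 14.0% of windows) occurred once for Timd4. The TATA box letters TATAAA (12.4% of windows) occurred once for Elmo1. The E-box letters CACGTG (6.02% of windows) occurred in no member. The same held for the AP-1 letters, in which N is any base: TGANTCA was in 6.75% of windows. No 2 matches of different motifs overlapped in the printed sequences. The bases G and C made up 73.2% of the Tyro3 window, 65.2% for Mfge8, 63.6% for Mertk and 60% for Axl, against a median of 52.4% over all windows. These matches describe letters only.

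Axl (ENSMUSG00000002602) was the most abundant TAM receptor on every scale used here. It had 960, 971 and 955 CPM in the BW723C86 libraries, against 551, 553 and 546 CPM in the DMSO libraries. The groups were far apart relative to their spread, with means of 962 ± 8.26 CPM for BW723C86 and 550 ± 3.63 CPM for DMSO (SD, n = 3 per group). The log2 fold change was 0.81 (SE 0.04, 95% interval 0.72 to 0.90, adjusted p = 4.8e-09), and 8.42% of tested genes had a larger rise.

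Mertk (ENSMUSG00000014361), the TAM receptor most closely tied to apoptotic cell uptake by macrophages, had 64.4, 69.7 and 68.8 CPM with BW723C86, against 38.2, 39.3 and 40 CPM with DMSO. Every BW723C86 library was above every DMSO library. The means were 67.6 ± 2.8 and 39.2 ± 0.944 CPM in the BW723C86 and DMSO groups (SD, n = 3 per group), and the log2 fold change was 0.79 (SE 0.05, 95% interval 0.67 to 0.91, adjusted p = 1.1e-07). Its change was close to that of Axl: within a library, the log2 ratio of Mertk to Axl counts was -3.90, -3.80 and -3.80 with BW723C86, against -3.85, -3.81 and -3.77 with DMSO. The group means of that ratio differed by -0.02, and the groups overlapped.

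Tyro3 (ENSMUSG00000027298) was the least abundant TAM receptor and had the largest fold change of the 8 tested members. Its libraries had 25.8, 23.0 and 26.3 CPM with BW723C86, against 4.41, 3.88 and 3.60 CPM with DMSO. These rest on 1481, 1654 and 1560 counts with BW723C86 and 343, 234 and 280 counts with DMSO, well above the detection floor of 3 counts, and the groups did not overlap. The log2 fold change was 2.66 (SE 0.10, 95% interval 2.44 to 2.88, adjusted p = 3.7e-10), and 0.713% of tested genes had a larger rise. Relative to Axl in the same library, Tyro3 had log2 count ratios of -5.22, -5.40 and -5.18 with BW723C86, against -6.96, -7.15 and -7.25 with DMSO, a difference in means of 1.86.

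Per kilobase of the longest annotated transcript, the scale on which levels of different genes can be compared, Axl made up most of the TAM receptor signal in both groups. Its level was 226 ± 1.94 CPM per kb with BW723C86 and 129 ± 0.85 CPM per kb with DMSO. Mertk had 15.7 ± 0.651 and 9.11 ± 0.219 CPM per kb, and Tyro3 had 5.62 ± 0.405 and 0.889 ± 0.0928 CPM per kb, in BW723C86 and DMSO libraries (SD, n = 3 per group). As a share of the 3 receptors summed on this scale, Tyro3 was 2.28% ± 0.18 with BW723C86 and 0.64% ± 0.0654 with DMSO. The Axl share was 91.4% ± 0.238 with BW723C86 and 92.8% ± 0.117 with DMSO, and the Mertk share was 6.36% ± 0.238 and 6.56% ± 0.179. The order Axl, Mertk, Tyro3 held in all 6 libraries.

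**Figure D1:**
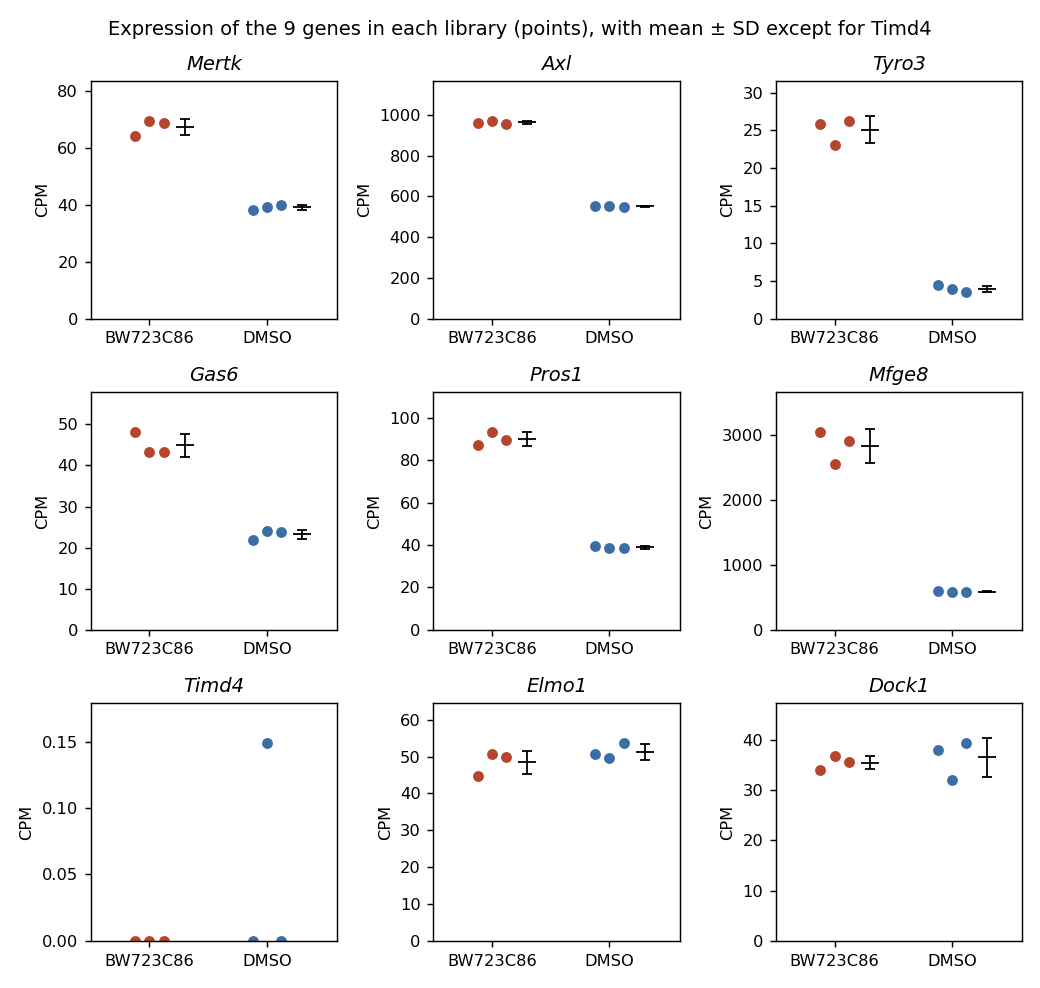
Level of each of the 9 genes in CPM, each panel on its own axis, with 1 point per library and the mean ± SD (n = 3) beside the points, except for Timd4. BW723C86 libraries lie left of DMSO libraries and above them for Mertk, Axl, Tyro3, Gas6, Pros1 and Mfge8, overlap with them for Elmo1 and Dock1, and Timd4 was at 0 in all libraries but DMSO replicate 2.

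Both TAM ligand genes rose. Pros1 (ENSMUSG00000022912), which encodes the anticoagulant protein S, had 87.1, 93.4 and 89.4 CPM with BW723C86, against 39.6, 38.6 and 38.6 CPM with DMSO. The means were 90.0 ± 3.16 CPM and 38.9 ± 0.599 CPM in the BW723C86 and DMSO groups (SD, n = 3 per group), with a log2 fold change of 1.21 (SE 0.05, 95% interval 1.10 to 1.32, adjusted p = 8.2e-10). No BW723C86 library was near a DMSO library. Gas6 (ENSMUSG00000031451) had 48.2, 43.2 and 43.3 CPM with BW723C86, against 21.9, 24.1 and 23.7 CPM with DMSO. Its log2 fold change was 0.95 (SE 0.07, 95% interval 0.81 to 1.10, adjusted p = 1.4e-07), again with no overlap between groups. Gas6 overlaps Tmem255b on the opposite strand and Mertk overlaps an antisense gene in the annotation. Neither partner was analysed here, and the sources do not state a strand setting for the counting.

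Protein S was the more abundant ligand transcript in every library. Per kilobase, Pros1 had 27.2 ± 0.956 CPM with BW723C86 and 11.8 ± 0.181 CPM with DMSO, and Gas6 had 17.6 ± 1.13 CPM with BW723C86 and 9.11 ± 0.451 CPM with DMSO (SD, n = 3 per group). Pros1 made up 60.7% ± 2.23 of the pair with BW723C86 and 56.4% ± 1.6 with DMSO. The log2 ratio of Pros1 to Gas6 counts was 0.85, 1.11 and 1.05 with BW723C86, against 0.86, 0.68 and 0.71 with DMSO, so the groups overlapped through BW723C86 replicate 1 and DMSO replicate 1. Gas6 relative to Axl had log2 ratios of -4.32, -4.49 and -4.46 with BW723C86, against -4.65, -4.52 and -4.53 with DMSO. The means differed by 0.14, and the groups did not overlap, although the closest libraries lay near each other.

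Activity of both ligands needs carboxylation of their Gla domains with vitamin K as a cofactor. Among 8 genes of the vitamin K cycle and Gla protein processing, 3 were higher, 1 was lower (2 without BW723C86 replicate 1) and 4 did not pass the test. Nqo1, a quinone reductase, had 32.0 ± 1.31 CPM with BW723C86 and 15.4 ± 0.444 CPM with DMSO, a log2 fold change of 1.06 (adjusted p = 5.3e-08). Furin, a protease that removes propeptides, had 648 ± 35.2 and 431 ± 5.93 CPM in BW723C86 and DMSO libraries (log2 fold change 0.59), and Vkorc1, the epoxide reductase of the cycle, rose by 0.26 on the log2 scale. Aifm2, another vitamin K reductase, had 37.3 ± 2.69 CPM with BW723C86 and 48.9 ± 1.84 CPM with DMSO, a log2 fold change of -0.39. The median over the 8 genes was 0.18, against 0.00 over all tested genes. Ggcx, the carboxylase itself and chosen for its role after its values were seen, had 8.12 ± 1.96 CPM with BW723C86 and 6.59 ± 0.573 CPM with DMSO (adjusted p = 0.15).

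Of 15 tested genes of receptor shedding and signalling, 4 were higher, 2 lower and 9 did not pass, with a median log2 fold change of -0.04. That was 26.7% higher and 13.3% lower, against 21.3% and 20.7% over all tested genes. The adaptor Shc1 (log2 fold change 0.23), the kinase Akt1 (0.28) and the ubiquitin ligase Cblb (0.49) were the higher genes of smallest p. Socs1, a feedback inhibitor of cytokine signalling, had 60.9 ± 3.44 CPM with BW723C86 and 72.4 ± 0.703 CPM with DMSO (log2 fold change -0.25), and the protease Adam10 had 113 ± 1.75 CPM with BW723C86 and 127 ± 3.68 CPM with DMSO (-0.16). The count of lower genes in this list was unstable: it was 4 without BW723C86 replicate 1, 6 without BW723C86 replicate 2, 1 without DMSO replicate 1, 7 with scaling by library totals alone and 5 with GC and length trends removed.

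**Figure D2:**
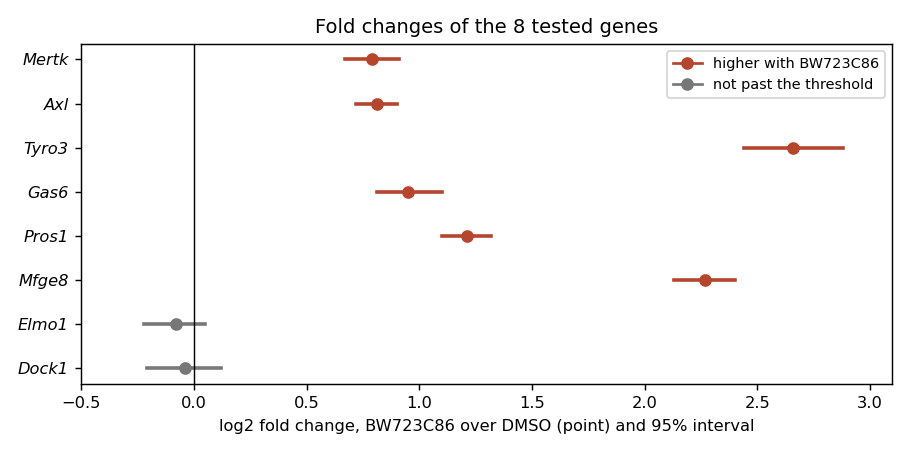
Log2 fold change (BW723C86 over DMSO) of the 8 tested members with 95% intervals from the edgeR fit, where 0 means no difference. Tyro3 (2.66) and Mfge8 (2.27) lie farthest from 0, while the intervals of Elmo1 and Dock1 include 0.

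Mfge8 (ENSMUSG00000030605) was the most abundant of the 9 genes, also per kilobase. It had 3043, 2541 and 2906 CPM with BW723C86, against 593, 586 and 583 CPM with DMSO. The DMSO libraries lay close together while the BW723C86 libraries were spread, with coefficients of variation of 9.17% for BW723C86 and 0.858% for DMSO, against medians of 6.4% and 3.87% over genes with a mean of at least 5 CPM. The lowest BW723C86 value was in replicate 2, which had the largest chi-square of counts against the other libraries of its group, and it was still above every DMSO library. The log2 fold change was 2.27 (SE 0.06, 95% interval 2.13 to 2.40, adjusted p = 1.6e-11), and 1.12% of tested genes had a larger rise. Without BW723C86 replicate 2 it was 2.32.

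Per kilobase, Mfge8 had 1215 ± 111 CPM with BW723C86 and 252 ± 2.16 CPM with DMSO (SD, n = 3 per group), above Axl in both groups. The log2 ratio of Mfge8 to Axl counts in the same library was 1.66, 1.39 and 1.61 with BW723C86, against 0.11, 0.08 and 0.10 with DMSO. Mfge8 and Axl transcripts thus gave similar raw counts in DMSO libraries and unlike ones in BW723C86 libraries.

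The integrin genes of the MFGE8 route went in both directions. Of 8 tested genes on that list, 3 were higher, 3 lower and 2 did not pass, with a median log2 fold change of -0.19. Itgav, the alpha-v chain, had 28.7 ± 1.36 CPM with BW723C86 and 35.1 ± 1.71 CPM with DMSO, which gave -0.29 on the log2 scale (SE 0.06, adjusted p = 0.0027). Its partner chains were higher: Itgb5 had 243 ± 11.3 CPM with BW723C86 and 163 ± 5.42 CPM with DMSO (log2 fold change 0.57, adjusted p = 8.2e-07), and Itgb3 had 15.9 ± 0.711 CPM with BW723C86 and 12.5 ± 0.388 CPM with DMSO (0.34, adjusted p = 0.0043). Relative to Itgav in the same library, Mfge8 had log2 count ratios of 6.65, 6.50 and 6.71 with BW723C86, against 4.09, 4.13 and 3.98 with DMSO, a difference in means of 2.55.

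Tgm2, a transglutaminase reported to cooperate with MFGE8 and the beta-3 integrin chain, had 127 ± 8.35 CPM with BW723C86 and 290 ± 1.12 CPM with DMSO, which gave -1.19 on the log2 scale (SE 0.05, adjusted p = 9.8e-10). Ptk2, the focal adhesion kinase, had 12.6 ± 0.429 and 7.49 ± 0.486 CPM in BW723C86 and DMSO libraries (0.76), and the kinase gene Src had 44.9 ± 4.01 and 55.0 ± 2.65 CPM (-0.30). Itgb1 had 383 ± 13.3 CPM with BW723C86 and 408 ± 7.24 CPM with DMSO and did not pass (log2 fold change -0.09, adjusted p = 0.11), and Itga3, below 1 CPM, did not pass either.

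**Figure D3:**
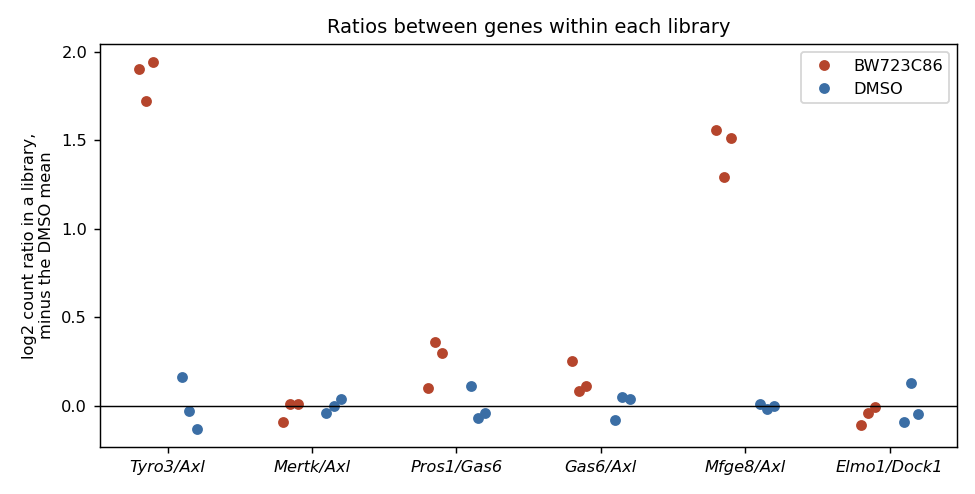
Log2 ratio of the counts of 2 genes in the same library, minus the mean of that ratio over the DMSO libraries, with 1 point per library; BW723C86 libraries lie left of DMSO libraries. The groups lie far apart for Tyro3 over Axl (difference in means 1.86) and Mfge8 over Axl (1.46). They lie close without overlap for Gas6 over Axl (0.14), while Mertk over Axl, Pros1 over Gas6 and Elmo1 over Dock1 overlap.

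Among 11 tested genes for other bridging proteins, 8 were higher and 3 lower, and every one passed the test; the median log2 fold change was 0.31. The complement C1q chains, which coat dying cells, were the higher genes of smallest p. C1qb had 474 ± 49.5 CPM with BW723C86 and 149 ± 3.04 CPM with DMSO (log2 fold change 1.67, adjusted p = 5.1e-10), C1qa had 123 ± 12.4 CPM with BW723C86 and 41.7 ± 1.25 CPM with DMSO (1.57), and C1qc had 278 ± 26.9 CPM with BW723C86 and 105 ± 1.51 CPM with DMSO (1.41). Thbs1, which encodes thrombospondin-1, a bridge to CD36 and alpha-v integrins, had 61.5 ± 2.76 CPM with BW723C86 and 2223 ± 20.4 CPM with DMSO, which gave -5.18 on the log2 scale (SE 0.05, adjusted p = 2.4e-15). The complement component gene C3 (-1.65) was lower too, and so was Edil3 (-1.35), which encodes an integrin ligand related to MFGE8. When tested against a fold of 1.2 in place of no change, 5 of the 11 genes were higher.

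Timd4 (ENSMUSG00000055546), a marker of some resident tissue macrophages, had no count in BW723C86 replicates 1, 2 and 3, against 0, 9 and 0 counts in the DMSO libraries. It was too low to be tested. With scaling by library totals alone, the floor of 3 counts corresponds to 0.0395 to 0.051 CPM across libraries. The other CPM values use the scaling of the edgeR fit and differ slightly from that scale. Timd2, a relative of Timd4 named after its values were seen, had 0 counts in all 6 libraries.

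Of 17 tested genes for other phosphatidylserine and apoptotic cell receptors, 6 were higher, 5 lower and 6 did not pass (median log2 fold change 0.02). Cd36, a scavenger receptor, had 213 ± 10.2 CPM with BW723C86 and 103 ± 0.727 CPM with DMSO (log2 fold change 1.04, adjusted p = 1.6e-09). Lrp1, a receptor for calreticulin-marked cells, had 2233 ± 51.6 CPM with BW723C86 and 1218 ± 13.2 CPM with DMSO (0.87), and Scarb1 was also higher (0.54). The lower genes of smallest p were Stab1, a receptor that binds phosphatidylserine directly, with 2.68 ± 0.105 CPM with BW723C86 and 25.8 ± 0.564 CPM with DMSO (-3.27, adjusted p = 1.4e-11), the scavenger receptor Msr1 (-0.94) and Cd300ld (-0.88). Members of the Cd300 family may share reads, which makes their values uncertain.

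Elmo1 (ENSMUSG00000041112) had 44.8, 50.6 and 50.0 CPM with BW723C86, against 50.6, 49.5 and 53.7 CPM with DMSO. The groups overlapped, and the log2 fold change was -0.08 (SE 0.06, 95% interval -0.22 to 0.05, adjusted p = 0.32). Dock1 (ENSMUSG00000058325), also called DOCK180, had 34.1, 36.7 and 35.6 CPM with BW723C86, against 38.0, 32.0 and 39.4 CPM with DMSO. Its BW723C86 values lay within the range of its DMSO values, and the log2 fold change was -0.04 (SE 0.08, 95% interval -0.21 to 0.12, adjusted p = 0.70). These intervals leave room for small differences in either direction. The 3 genes within the Dock1 locus that were analysed had at most 8 counts in a library. An antisense gene at Elmo1 was not analysed here.

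The log2 ratio of Elmo1 to Dock1 counts was 0.39, 0.46 and 0.49 with BW723C86, against 0.41, 0.63 and 0.45 with DMSO, and the groups overlapped. Each gene was a minority of its own family per kilobase. Elmo1 made up 28.0% ± 1.33 of the 3 ELMO genes with BW723C86 and 33.1% ± 0.515 with DMSO, and Elmo2 68.6% ± 0.798 with BW723C86 and 63.9% ± 0.669 with DMSO. Dock1 made up 13.2% ± 0.231 of Dock1, Dock2 and Dock5 with BW723C86 and 13.3% ± 1.25 with DMSO, while Dock2, the blood-cell member of that subfamily, made up 81.0% ± 0.406 with BW723C86 and 75.8% ± 1.02 with DMSO.

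Of the 12 other ELMO and DOCK genes, all tested, 2 were higher, 6 lower and 4 did not pass, with a median log2 fold change of -0.22. Elmo2 had 102 ± 0.728 CPM with BW723C86 and 85.0 ± 5.54 CPM with DMSO (log2 fold change 0.26, adjusted p = 0.0012). Dock3, a Rac activator known mainly from neurons, had 6.04 ± 0.284 CPM with BW723C86 and 1.52 ± 0.297 CPM with DMSO (1.99, adjusted p = 1.1e-06). Dock2 had 206 ± 11.7 CPM with BW723C86 and 195 ± 1.35 CPM with DMSO and did not pass (0.08, adjusted p = 0.23).

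Among the lower genes were Dock5, which had 23.1 ± 1.96 CPM with BW723C86 and 43.4 ± 1.56 CPM with DMSO (log2 fold change -0.91, adjusted p = 3.5e-07), Dock4 (-0.46), Dock8 (-0.45), Dock11 (-0.38) and Dock10 (-0.17). Dock8, Dock10 and Dock11 are known to act mainly on Cdc42 or on Cdc42 and Rac. Elmo3 (0.37), Dock6 (0.31) and Dock9 (-0.57), all below 5 CPM in both groups, did not pass.

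**Figure D4:**
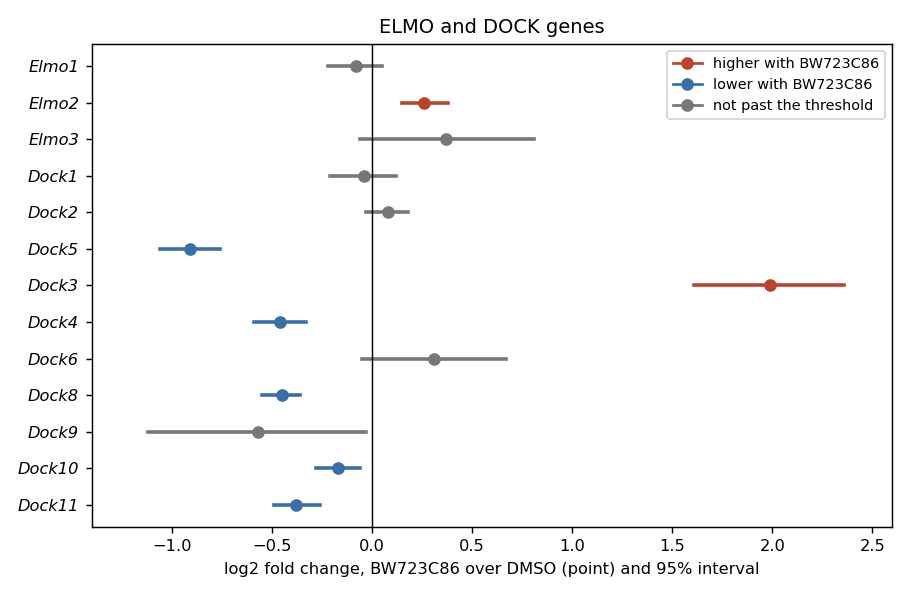
Log2 fold change (BW723C86 over DMSO) with 95% intervals for Elmo1, Dock1 and 11 other ELMO and DOCK genes, where 0 means no difference. Dock3 lies farthest to the right (1.99) and Dock5 farthest to the left (-0.91), and Elmo1 and Dock1 lie next to 0.

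Rac activation and engulfment adaptor genes gave 5 of 19 tested genes higher, 6 lower and 8 not past the test (median log2 fold change 0.04). That was 26.3% higher and 31.6% lower, against 21.3% and 20.7% over all tested genes. Arhgap25, a Rac GTPase-activating protein, had 113 ± 1.77 CPM with BW723C86 and 63.9 ± 2.21 CPM with DMSO (0.83, adjusted p = 1.5e-08), the exchange factor Vav2 had 61.3 ± 2.36 CPM with BW723C86 and 36.1 ± 0.764 CPM with DMSO (0.76), and Rab35 was higher by 0.31. Rac2, the blood-cell Rac, had 427 ± 17.8 CPM with BW723C86 and 576 ± 11.9 CPM with DMSO (-0.43, adjusted p = 6.6e-06), and Vav1 (-0.22) and the adaptor Crk (-0.23) were lower. Rac1, the target of the ELMO1-DOCK1 complex and named after its values were seen, had 443 ± 10.7 CPM with BW723C86 and 363 ± 5.62 CPM with DMSO (log2 fold change 0.29, adjusted p = 0.00011).

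Genes of find-me signals, which attract phagocytes, and of their receptors gave 5 higher and 3 lower of 10 tested (median log2 fold change 0.41). The nucleotide receptor P2ry6 had 140 ± 10.3 CPM with BW723C86 and 89.7 ± 3.02 CPM with DMSO (0.65), and Sphk1 (0.64), which makes sphingosine-1-phosphate, and its receptor S1pr2 (0.37) were higher. S1pr1, another receptor of that lipid, had 3.24 ± 0.479 CPM with BW723C86 and 10.9 ± 0.967 CPM with DMSO (-1.75, adjusted p = 3.5e-07), and P2ry12 (-0.95) and Gpr132 (-0.46) were lower. Phosphatidylserine exposure genes gave 3 higher and 3 lower of 9 tested, with the flippases Atp8a1 (0.42) and Atp11a (0.31) among the higher genes, and Plscr1 (-0.79), the scramblase gene Xkr8 (-0.41) and the flippase subunit gene Tmem30a (-0.36) lower. They were read in the sequenced cells, with no library of the HT22 cells alone.

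Nuclear receptors and other transcription factors known to act in apoptotic cell uptake gave 5 higher, 4 lower and 4 not past the test of 13 (median log2 fold change 0.10). Rxra, the partner of several lipid-sensing receptors, had 210 ± 5.64 CPM with BW723C86 and 149 ± 2.62 CPM with DMSO (0.49, adjusted p = 1.1e-06), and Klf4 (0.50) was higher. Maf, a leucine zipper factor of macrophages, had 7.85 ± 0.193 CPM with BW723C86 and 15.9 ± 0.833 CPM with DMSO (-1.02), and Klf2 (-0.92) and the glucocorticoid receptor gene Nr3c1 (-0.26) were lower.

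Downstream of uptake, 13 of 24 genes of phagosome maturation and LC3-associated phagocytosis were higher, 4 lower and 7 not past the test, with a median log2 fold change of 0.17. Lipa, the lysosomal acid lipase, had 821 ± 25.8 CPM with BW723C86 and 335 ± 1.4 CPM with DMSO (1.29, adjusted p = 9.5e-11), and the nucleoside transporter gene Slc29a3 (0.80) and the NADPH oxidase subunit gene Cybb (0.59) were higher. Rab20 (-0.74), Uvrag (-0.27) and Rab5a (-0.21) were lower. Only 5 of the 24 genes were higher when tested against a fold of 1.2, and the count of lower genes was 7 without BW723C86 replicate 2. Cargo handling genes gave 7 higher and 3 lower of 15 tested, led by the cholesterol carrier Npc2 (0.79), Dnmt3a (0.72) and the cholesterol-esterifying enzyme Soat1 (0.58) on the higher side and by Alox15 (-1.28), Mgst2 (-0.95) and Ucp2 (-0.17) on the lower side. The count of lower cargo handling genes was 6 with scaling by library totals alone and 5 with GC and length trends removed.

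The list of inhibitory signals against uptake was also mixed, with 5 of 11 tested genes higher and 4 lower (median log2 fold change 0.09). These values are from the sequenced cells, and no library was of the HT22 cells alone. Cd47, the "do not eat me" ligand, had 136 ± 3.63 CPM with BW723C86 and 235 ± 5.82 CPM with DMSO (-0.79, adjusted p = 1.4e-08), while its receptor Sirpa had 1284 ± 9.47 CPM with BW723C86 and 1078 ± 11.5 CPM with DMSO (0.25). Cd24a had 197 ± 16.6 CPM with BW723C86 and 369 ± 5.92 CPM with DMSO (-0.91), while its receptor gene Siglecg had 7.15 ± 0.51 CPM with BW723C86 and 2.31 ± 0.548 CPM with DMSO (1.62). Slamf7 (1.58), which is counted on this list but is not an established inhibitor of uptake, was higher. Cd274, which encodes PD-L1, was lower (-0.46), and its receptor gene Pdcd1, named after its values were seen, had at most 30 counts in a library and did not pass (log2 fold change -0.36, adjusted p = 0.72).

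**Figure D5:**
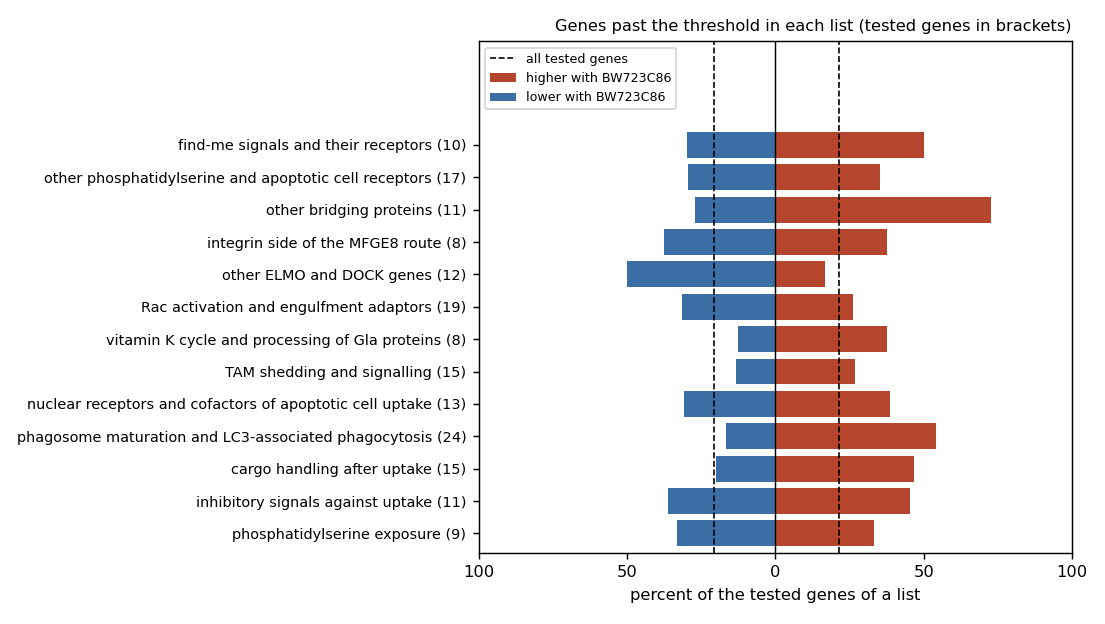
Share of the tested genes of each of 13 pathway lists that passed the test, with genes higher with BW723C86 to the right and lower to the left, and dashed lines at the shares over all tested genes (21.3% higher and 20.7% lower). The bar for other bridging proteins reaches farthest to the right (8 of 11 genes) and the bar for other ELMO and DOCK genes farthest to the left (6 of 12).

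Tested against a fold of 1.2, fewer genes passed in several lists. The Rac and adaptor list then gave 2 higher and 1 lower, the TAM shedding and signalling list 1 higher and 0 lower, and cargo handling 4 higher. Lower genes numbered 1 on the integrin list and 2 among nuclear receptors and related factors. Higher genes numbered 1 among the other ELMO and DOCK genes and 2 on the list of inhibitory signals. Phosphatidylserine exposure gave 1 in each direction.

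All 8 tested members had a mean of at least 5 CPM over the 6 libraries, and 52.6% of all tested genes at or above that mean passed in either direction. Tyro3 reached that mean only through its BW723C86 libraries, with 25.1 ± 1.81 CPM against 3.96 ± 0.414 CPM with DMSO. Of the members tested, 6 had groups that did not overlap, against 52.3% of all tested genes, and 3 (Tyro3, Mfge8 and Pros1) were at least 2-fold higher, against 4.41% of all tested genes. Since the members were chosen with earlier results of these data known, these comparisons are descriptions only.

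The genes whose profiles lay nearest to those of 4 members were found among 10024 genes with a symbol and a mean of at least 5 CPM, by the root-mean-square difference in log2 CPM over the 6 libraries after centring on the DMSO mean. Nearest to Mertk were Rnf128 (0.034), Nlrc5 (0.038) and Plekhm1 (0.041), and nearest to Axl were Esd (0.027), Nlrc5 (0.027) and Csf2ra (0.028), so Nlrc5 was in both sets. For Mfge8 they were H2-Eb1 (0.038), Itgax (0.066) and Mgl2 (0.068). H2-Eb1 had 1199 ± 131 CPM with BW723C86 and 256 ± 6.48 CPM with DMSO, and Itgax had 2361 ± 79 CPM with BW723C86 and 471 ± 6.7 CPM with DMSO. Tyro3 had no neighbour as close, its nearest being Pianp (0.164), H2-Aa (0.178) and Cd109 (0.193). In DMSO libraries the coefficient of variation was 10.4% for Tyro3, 2.41% for Mertk, 0.659% for Axl and 0.858% for Mfge8. With BW723C86 it was 7.21%, 4.14%, 0.859% and 9.17% in that order. The part of this spread in the distances was not tested. H2 genes belong to a family with similar copies, and their values are uncertain for that reason. This measure describes similarity of the values over 6 libraries in 2 groups and was not tested.

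Total counts ran from 58841307 to 75931615 per library, and the leading principal component, with 56.9% of the variance, separated the groups. On the next component BW723C86 replicates 1, 2 and 3 lay at 42.48, -11.59 and -31.44, so that replicate 1 stood farthest from the others there. The summed level of 10 macrophage markers was 32854 to 34057 CPM in BW723C86 libraries and 37456 to 38310 CPM in DMSO libraries, with 4 of these genes higher and 5 lower. Lyz2, which monocytes and neutrophils also express, made up 88 to 88.4% of that sum with BW723C86 and 86.8 to 87.1% with DMSO, and the other 9 markers summed to 3936 to 3971 CPM with BW723C86 and 4872 to 4949 CPM with DMSO. Dendritic cell markers summed to 2385 to 2543 CPM with BW723C86 and 535 to 547 CPM with DMSO, with 6 of 9 tested genes higher. Itgax, which macrophages also express, made up 95.1 to 95.2% of that sum with BW723C86 and 86.7 to 87.8% with DMSO, and without it the markers summed to 114 to 124 CPM with BW723C86 and 66 to 71.3 CPM with DMSO. Lyz2 and Itgax were set apart after their values were seen. Monocyte markers summed to 1248 to 1362 CPM with BW723C86 and 3871 to 3926 CPM with DMSO, with 8 of 8 lower (median log2 fold change -2.18). Chil3, named after its values were seen, made up most of that sum, at 1105 ± 56.3 CPM with BW723C86 and 3203 ± 25.1 CPM with DMSO. Neutrophil markers summed to 28.3 to 32.3 CPM with BW723C86 and 206 to 217 CPM with DMSO, with 7 of 7 tested lower. Resident macrophage markers summed to 39.6 to 40.2 CPM with BW723C86 and 60.0 to 64.7 CPM with DMSO, with 2 of 8 higher and 3 lower. Neuron markers, chosen for the HT22 side, summed to 33.3 to 39.3 CPM with BW723C86 and 16.4 to 18.7 CPM with DMSO, with 3 of 5 tested genes higher. Most of that sum was Syn1 (19 ± 0.717 CPM with BW723C86 and 7.59 ± 0.648 CPM with DMSO) and Uchl1 (13 ± 1.92 and 7.52 ± 0.228 CPM). Both were named after their values were seen. Map2, Nefl and Dcx were at 0 in every library, and Tubb3, Nefm, Stmn2 and Grin1 were too low to test. Stromal and endothelial markers summed to 98.2 to 106 CPM with BW723C86 and 94.3 to 97.8 CPM with DMSO (2 of 6 higher, 1 lower). Kdr made up most of that sum, at 82.6 ± 3.22 CPM with BW723C86 and 68.3 ± 1.64 CPM with DMSO. Lymphocyte and mast cell markers summed to 13.2 to 15.5 CPM with BW723C86 and 59.4 to 64.1 CPM with DMSO (6 of 7 lower). The mast cell gene Cpa3 made up most of it, at 11.7 ± 1.45 CPM with BW723C86 and 51.6 ± 2.62 CPM with DMSO. On that list Cd3e, Cd8a, Nkg7 and Ncr1 were too low to test. Kdr and Cpa3 were named after their values were seen. The part of these marker differences in the values of the 9 genes was not tested.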

How the data were processed

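Per the labels' protocols, RNA was selected for poly(A), copied into strand-marked cDNA and sequenced as paired ends. The submitters' processing notes name fastp, HISAT2, StringTie and edgeR and the builds GRCm39 and GRCh38, without versions or roles. The authors deposited 1 estimated count per gene and library, and every value was whole. The value 4 occurs 4613 times, against 2904 for 3 and 2552 for 5, so how many counts a fragment is worth is uncertain, and counts divided by 4 were tried. Names and transcript lengths came from GENCODE M21 for 27005 of 28822 rows. It describes another build, so no gene coordinates are given; promoters are RefSeq's on GRCm38.p6.

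Libraries had 58841307 to 75931615 counts; the floor of 3 counts covers counting error only, while the 95% intervals of fold changes come from the edgeR fit and include the spread between libraries. Every pair of replicates differed by more than sampling noise (chi-square per degree of freedom 9.83 to 35.5, or 2.46 to 8.88 with counts divided by 4), with BW723C86 replicate 2 farthest from its group by this measure. Labels do not say that replicates were separate cultures, so the p-values cover the spread among these libraries alone, possibly a technical one.

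The test was edgeR 4.0.16's quasi-likelihood F test in R 4.3.3 (robust, TMM scaling, default expression filter, two-sided), with Benjamini-Hochberg adjustment over 15567 genes at 0.05 and no covariates, tested on simulated data. SE is the log2 fold change over the square root of F. Named were all 9 members, up to 3 genes of smallest p per direction and list, any integrin, ELMO or DOCK gene of the lists, and the 3 nearest profiles of 4 members (pseudocount 0.1 CPM). The members and lists were chosen with earlier results of these data known, and the lists get no test of their own. Alternatives were other scalings, filters and fits, DESeq2 1.42.0, limma 3.58.1 (voom), the replicate number as a block, GC and length trends removed, and each library left out in turn. A few genes that the naming rule picks are not reported here.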

Additional observations from a re-analysis of the deposited data

How the results depend on the processing

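Over 18 alternatives, 6 members stayed higher and 0 lower at an adjusted p under 0.05, and the 6 were Mertk, Axl, Tyro3, Gas6, Pros1 and Mfge8 each time. Their log2 fold changes ranged from 0.71 to 0.82 for Mertk, 0.72 to 0.81 for Axl, 2.57 to 2.74 for Tyro3, 0.84 to 0.98 for Gas6, 1.14 to 1.29 for Pros1 and 2.16 to 2.32 for Mfge8. Elmo1 ranged from -0.15 to -0.03 (adjusted p = 0.081 to 1) and Dock1 from -0.13 to 0.02 (adjusted p = 0.17 to 1), neither past the threshold in any alternative. The sign of Dock1 turned only when DMSO replicate 3 was left out (0.02); leaving out single libraries gave -0.13 to 0.02, and the cause was not tested. Of all tested genes 6534 passed, 5387 to 7153 with single libraries left out and 3208 when tested against a fold of 1.2, a stricter question by construction. With the replicate block 6179 genes passed and no member's call changed; same-numbered libraries did not deviate together (correlations of 0.031, -0.025 and -0.005), so the numbers were not taken to pair samples. Of 468 list counts over these alternatives, 445 stayed within 1.5 times the main count, 8 were higher and 15 lower. The median log2 fold change of all tested genes was -0.0693 with scaling by library totals alone and 0.0042 in the fit reported. Without a known worth of a fragment in counts, the depth behind low genes such as Timd4 is uncertain.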
